A study of Homo sapiens with 15 samples.

Results

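This is an account of 10 genes that p53 is known to induce: DDB2, XPC, POLH, AEN, ZMAT3, PHLDA3, TP53I3, FDXR, CYFIP2 and TP53I11. Several of their products act in DNA repair, damage signalling or metabolism. CYFIP2 belongs to a complex that acts on actin, and no role is given here for TP53I11. The genes were followed in IMR32, a human neuroblastoma line, while CDK2 was being silenced. All probe sets that name a member and no other gene were taken, which gave 22 of the 54675 probe sets of the arrays and covered 9 of the 10 genes. FDXR, which encodes the reductase that passes electrons to mitochondrial ferredoxins, was not analysed here. The 15 arrays are 3 for each of 5 times (0, 8, 24, 48 and 72) after doxycycline at 100 ng/ml. No unit stands beside the times in the labels, and what is known of the study makes them hours. The cells of every array, those of 0 h included, came from a clone that carries the tetracycline repressor, driven by a CMV promoter, and a CDK2 hairpin vector that doxycycline turns on. The line is thus 1 selected clone, and there is no later time without doxycycline and no second hairpin, so time in culture, doxycycline and loss of CDK2 cannot be told apart. The labels do not say that the 3 arrays of a time are separate cultures, so the p-values rest on a spread that may be technical.

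The p53 protein is a transcription factor that binds pairs of short half-sites in DNA and turns on genes for cell-cycle arrest, cell death, repair and metabolism. It is held low by MDM2, itself a p53 target, and is stabilised when kinases of the DNA damage response act on it. Among its targets, DDB2 and XPC serve nucleotide excision repair, the removal of bulky lesions, and POLH serves translesion synthesis, in which a polymerase copies past a lesion. The arrays read RNA only, and neither p53 protein nor its activity was measured. In RNA of whole cultures, a change in each cell and a change in the mix of cells cannot be told apart.

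The p53 binding motif was searched in the 250 bases before and 50 after each annotated transcript start, in RefSeq promoter windows of build GRCh38.p14. Windows were found for 8 of the 9 measured genes (13 windows). The p53 half-site consensus has 10 bases and reads the same on both strands, and a full site was taken as a pair of half-sites 0 to 13 bases apart, not overlapping. A full site with no mismatch stood in the DDB2 window of the downstream start, 1 of 10 such windows among 35116 (0.0285%). Mismatches were not allowed at the core C and G of a half-site. AEN held a full site with 2 mismatches, and full sites with up to 2 mismatches under this rule were found in 2.93% of all windows. These stretches are shown because they are, among the measured genes, the only windows with a half-site, which 6.63% of all windows hold. Capitals mark the half-sites, and both runs are on the plus strand, 5′ to 3′.
DDB2, chr11:47214975-47215004: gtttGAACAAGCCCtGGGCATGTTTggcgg
AEN, chr15:88621301-88621330: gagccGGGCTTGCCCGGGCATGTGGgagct
In DDB2 the site runs from base 6 to base 26 of the transcript, with a spacer of 1 base. In AEN it runs from 34 to 15 bases before the start with a spacer of 0. A match is a description of letters, and no match says only that these letters are not in a window of 300 bases.

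The values are MAS5 signals on a linear scale, which the 15 arrays carry at a common trimmed mean of 100.01. CDK2 was the check of the labels: its brightest probe set had a mean of 231.7 over the 3 arrays of 0 h, 94.5 over those of 8 h and 30.1 over those of 72 h. Tests used log2(signal + 16), with 1 probe set, the brightest, standing for each of 11774 genes, and a gene was called when its limma p-value, adjusted over all of them, was under 0.05. Fold changes include the added 16 and understate those of dim probe sets. All comparisons with 0 h share the 3 arrays of that time. Median signal averaged 16.3 at 0 h and 18.9 at 72 h. The median change of all genes at 72 h was 0.10, and -0.01 with each array centred on its own median, so small rises are to be read against a shift of this size. With that centring, the genes higher and lower numbered 457 and 727 at 24 h (911 and 673 as deposited), 2069 and 2556 at 48 h (3093 and 2082), and 2735 and 3250 at 72 h (3861 and 2670). For the steps they were 143 and 349 from 8 h to 24 h (299 and 382), 953 and 1261 from 24 h to 48 h (1462 and 1240), and 328 and 696 from 48 h to 72 h (535 and 723). The ACTB 3′ to 5′ ratio, a measure of RNA integrity, differed between times, and all arrays of 24 h and 72 h were above those of 0 h. It was 1.10 to 1.19 at 0 h, 1.10 to 1.30 at 8 h, 1.20 to 1.24 at 24 h, 1.15 to 1.24 at 48 h and 1.21 to 1.35 at 72 h. Its part in the results was not tested. The ratio of GAPDH was 0.974 to 1.07 on all arrays. The third arrays of 8 h and of 72 h had the lowest limma array weights (0.405 and 0.356) and the highest ACTB ratios (1.30 and 1.35). The neuroblastoma markers GATA3, MYCN, PHOX2A and CHGA were bright on all arrays (lowest 744.7). ISL1 averaged 335.5 at 0 h and 1151 at 72 h, HAND2 89.6 and 207.0, and DBH 88.8 and 143.7, while TH, which encodes tyrosine hydroxylase, was at 0.5 to 9.5. The 8 measured of 9 summed to 10406 to 10800 at 0 h and 12641 to 13594 at 72 h. Summed markers of immune cells (3 of 5 measured) were at most 35.7, of endothelial cells 69.3 and of epithelial cells 62.2 on any array. Those of fibroblasts were at 250.5 to 448.2 at 0 h and 294.7 to 509.2 at 72 h, mostly COL1A1, and the part of these marker changes in the results was not tested.

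Of the 9 genes, 8 were higher at 72 h than at 0 h and 1, TP53I11, was lower. On the probe sets standing for the genes, no member passed limma's test at 8 h, while 0.45% of all genes passed. On these, 0 had an unadjusted p under 0.05. In the fit of all probe sets, 0 of the 21 that passed the filter were called at 8 h (0.0293% of all were higher and 0.212% lower). There limma's unadjusted p was 0.021 for ZMAT3 225725_at (0.38), 0.049 for PHLDA3 235534_at (0.30) and 0.0090 for POLH 231115_at (0.56). At 24 h, 6 members rose on the probe sets standing for them (7.74% of all genes did) and 0 fell (5.72%). Members that rose by 48 h numbered 8 (26.3% of all genes), with 1 lower (17.7%). The same numbers held at 72 h, 8 higher (32.8%) and 1 lower (22.7%). All 3 arrays lay above all 3 of 0 h for 7 members at 24 h (20.5% of all genes), 8 at 48 h (34.1%) and 8 at 72 h (36.3%), and all 3 lay below for 1 at 48 h (22.5%) and 1 at 72 h (25.1%). The median change of the 9 was 0.50, 0.62 and 0.78 on the log2 scale at 24, 48 and 72 h, against 0.05, 0.08 and 0.10 for all genes. By 48 h, 2 had risen by more than 1 on that scale, CYFIP2 and ZMAT3 (2.37% of all genes), and by 72 h DDB2 too, 3 in all (5.34%). The F test over the time course called all 9, as it did 57% of all genes. Of the 21 probe sets of these genes that passed the filter, 13 were higher at 24 h (4.68% of all probe sets tested), 15 were higher and 1 lower at 48 h (20.8% and 13.8%), and 16 were higher and 1 lower at 72 h (27.1% and 19.3%). One of the 21, POLH 231115_at, was under the filter level at 0 h and entered only through the later times. Of the other 20, 12 were higher at 24 h, 14 at 48 h and 15 at 72 h.

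**Figure D1:**
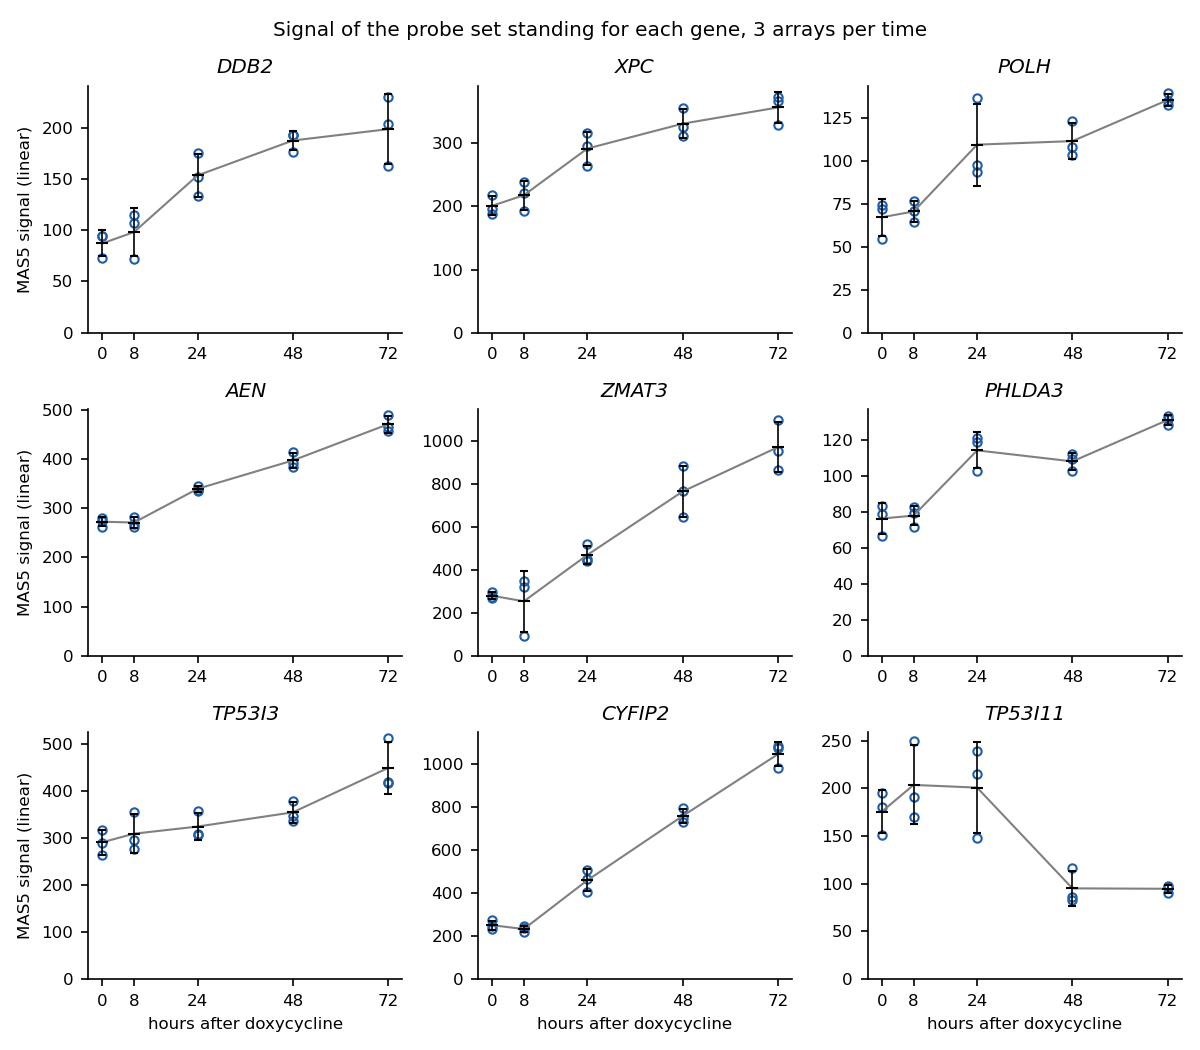
MAS5 signal (linear, from 0) of the probe set standing for each gene against hours after doxycycline. Open circles are the 3 arrays of a time, the line joins their means and bars show the SD. CYFIP2 goes from 250.4 to 1044 and TP53I11 from 175.5 to 94.6 between 0 h and 72 h, and 1 ZMAT3 array at 8 h lies at 90.4, apart from the other two.

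DDB2, the lesion-binding subunit that with DDB1 finds ultraviolet damage in chromatin, rose from 24 h on. Its single probe set read 94.4, 94.5 and 72.4 on the arrays at 0 h, 107.5, 115.3 and 71.7 at 8 h, and 175.4, 151.8 and 133.2 at 24 h. It then read 176.3, 193.3 and 193.0 at 48 h and 230.0, 203.5 and 162.4 at 72 h. All arrays from 24 h on lay above all those of 0 h, while the 8 h arrays overlapped them. The change against 0 h was 0.72 ± 0.15 (SE) at 24 h (adjusted p = 0.0044), 0.99 by 48 h (4.8e-05) and 1.05 by 72 h (1.4e-05), a fold of 2.08 at the last time. The third array read lowest for DDB2 at 0 h, 8 h, 24 h and 72 h, and not at 48 h. Without those of 8 h and 72 h, and with that of 0 h kept, the 72 h change was 1.18. DDB2 is also the gene whose printed site has no mismatch. CYFIP2 (1.99) and ZMAT3 (1.73) changed more at 72 h and had no half-site in their windows. A link between site and change was not tested.

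XPC encodes the sensor that opens global genome repair by binding distorted DNA. It read 196.2, 218.0 and 188.6 at 0 h, 238.2, 193.1 and 222.0 at 8 h, and 295.0, 263.6 and 316.6 at 24 h. At 48 h the arrays gave 311.1, 355.8 and 326.5, and at 72 h 329.1, 367.7 and 373.8. From 24 h on no array overlapped the 0 h arrays, and 48 h and 72 h overlapped each other. XPC rose by 0.50 ± 0.10 (SE) at 24 h (adjusted p = 0.0021), 0.68 at 48 h (2.2e-05) and 0.78 at 72 h (2.3e-06), a fold of 1.72 at 72 h.

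POLH, the polymerase that copies past ultraviolet dimers, was called higher from 24 h on by 2 of the 5 probe sets that reached the filter level at 0 h. The probe set standing for it read 72.1, 74.3 and 54.7 at 0 h, 76.5, 70.5 and 64.2 at 8 h, 93.6, 97.5 and 136.6 at 24 h, 108.0, 103.0 and 122.9 at 48 h, and 132.1, 134.4 and 139.1 at 72 h. The early and the late arrays did not overlap. POLH rose by 0.58 ± 0.13 (SE) at 24 h (adjusted p = 0.0067), 0.62 at 48 h (9.6e-04) and 0.87 at 72 h (2.2e-05). The other probe sets did not all follow. When all 27307 probe sets past the filter were tested together, 219380_x_at was called at 72 h (0.88, and 1.08 without 72 h replicate 3). By contrast 222879_s_at was at 0.29 (adjusted p = 0.063), 1557700_at at 0.13 (0.61) and 1557701_s_at at -0.07 (0.79), or 0.09 without 72 h replicate 3. These 3 averaged 47.6, 19.0 and 47.6 in signal at 0 h. The sixth, 231115_at, read 6.9 to 11.2 at 0 h, under the filter level, and 29.7 to 41.6 at 72 h. It entered the test only through the later times, so its call is not used as support.

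AEN is a nuclease that p53 induces and that promotes apoptosis. Its arrays were close together: 275.0, 262.4 and 280.8 at 0 h, 262.0, 267.8 and 283.3 at 8 h, 346.0, 335.9 and 336.8 at 24 h, 384.5, 392.9 and 414.4 at 48 h, and 456.6, 489.9 and 466.2 at 72 h. Each time from 24 h on lay wholly above the one before. AEN rose by 0.30 ± 0.07 (SE) at 24 h (adjusted p = 0.0088), by 0.52 at 48 h (1.3e-05) and by 0.75 at 72 h (7.4e-08). With arrays centred on their medians the 24 h call was lost (0.24, adjusted p = 0.11).

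ZMAT3, a zinc-finger protein that binds RNA and affects the fate of other transcripts, was measured by 5 probe sets. The brightest read 273.4, 269.5 and 298.3 at 0 h, 350.0, 322.0 and 90.4 at 8 h, 519.0, 451.7 and 440.2 at 24 h, 882.9, 646.0 and 768.7 at 48 h, and 1098.8, 952.4 and 865.8 at 72 h. The third array at 8 h stands below all others, and the arrays of 24, 48 and 72 h lie above all of 0 h. ZMAT3 was at 0.71 ± 0.29 (SE, adjusted p = 0.12) at 24 h, and rose by 1.39 at 48 h (9.1e-04) and 1.73 at 72 h (7.5e-05), a fold of 3.32. Without that 8 h array the 24 h change was the same and was called (adjusted p = 2.6e-04), since the array enters the spread shared by all times. At 8 h the change of -0.33 became 0.25 without it, and neither was called. On the same array 1555609_a_at was also low (17.2, against 53.9 and 49.2), and the other 3 ZMAT3 probe sets read 1.08 to 1.29 times the mean of their 2 fellow arrays. The third array at 72 h was low on 1555609_a_at as well (75.2, against a mean of 191.2 on the other two). Tested with all probe sets, 3 of 5 were called higher at 24 h (0.65 to 1.09 over the 5) and all 5 at 48 h and 72 h, where at 72 h they ranged from 1.36 (1555609_a_at, and 1.75 without 72 h replicate 3) to 2.37 (225725_at).

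**Figure D2:**
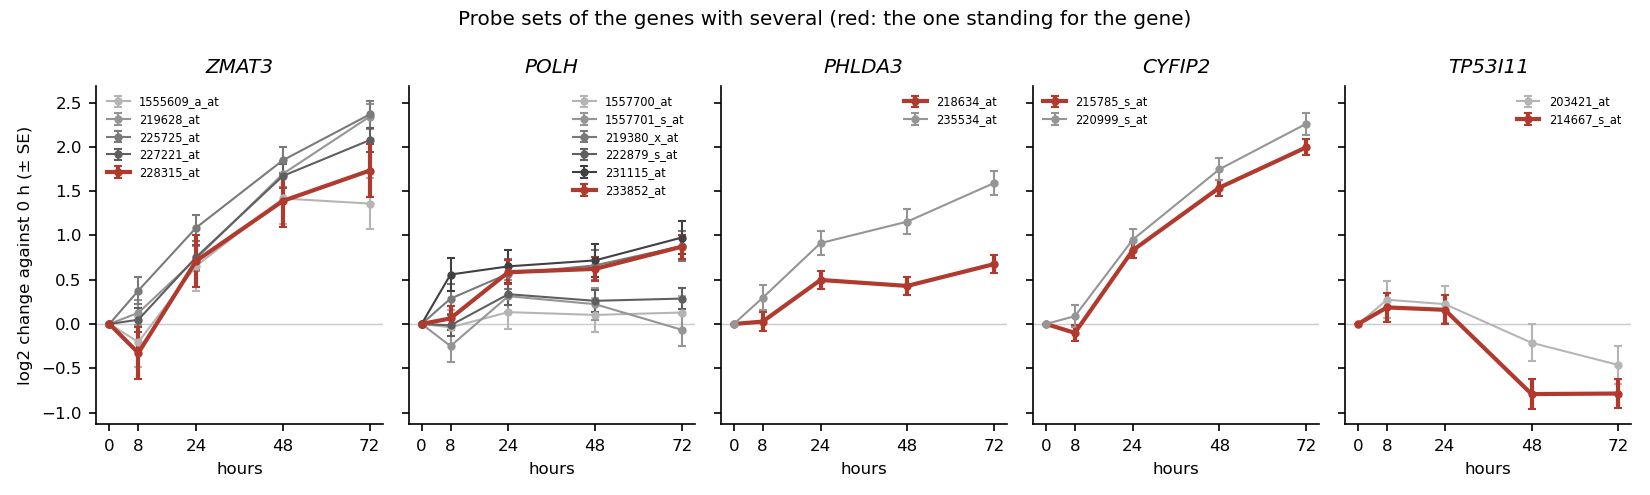
Log2 change against 0 h, with limma's SE, for each probe set past the filter of the 5 genes that have several, by hours after doxycycline. Red marks the probe set standing for the gene. At 72 h the ZMAT3 lines end between 1.36 and 2.37, those of POLH between -0.07 and 0.98 (the highest is 231115_at, which was under the filter level at 0 h), and both TP53I11 lines lie below 0.

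PHLDA3, a small protein that competes with the kinase AKT for membrane lipids and so restrains it, rose on both probe sets. The brighter read 83.2, 78.7 and 66.8 at 0 h, 82.4, 79.3 and 71.8 at 8 h, 121.1, 102.6 and 118.5 at 24 h, 109.2, 102.7 and 111.9 at 48 h, and 131.4, 133.3 and 128.1 at 72 h. It was higher at 24 h and later than on any array of 0 h, and the arrays of 24 h and 48 h overlapped. The change was 0.50 ± 0.10 (SE) at 24 h (adjusted p = 0.0036), 0.43 at 48 h (0.0025) and 0.68 at 72 h (2.3e-05). The dimmer probe set moved more, from 32.8, 34.8 and 32.5 at 0 h to 116.3, 141.0 and 142.2 at 72 h, with a change of 1.59 against 0.68. Which of the 2 is nearer to the change of the gene cannot be told from the signals.

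TP53I3, a quinone oxidoreductase linked to the production of reactive oxygen species, rose late and, on the probe sets standing for the genes, least among the 8. It read 318.6, 265.1 and 290.6 at 0 h, 295.7, 277.5 and 356.0 at 8 h, 309.6, 306.6 and 358.6 at 24 h, 348.3, 337.3 and 380.1 at 48 h, and 417.3, 419.1 and 513.0 at 72 h. The arrays of 8 h and 24 h overlapped those of 0 h, and those of 48 h and 72 h lay above them. The change was 0.15 ± 0.11 (SE, adjusted p = 0.39) at 24 h, 0.27 by 48 h (0.046) and 0.60 by 72 h (1.3e-04). The 48 h call was lost under 13 of 28 alternative settings, among them the centring of arrays (0.18, adjusted p = 0.30). It was lost without any 1 of 9 arrays: 0 h replicates 2 (0.21) and 3 (0.27), 8 h replicate 1 (0.27), 24 h replicates 1 and 2 (0.27), 48 h replicates 1 (0.29), 2 (0.31) and 3 (0.23), and 72 h replicate 2 (0.27).

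CYFIP2 encodes a subunit of the WAVE complex, which drives branching of actin filaments. It had the largest change of the 9 genes at 72 h on the probe sets standing for them. The arrays read 246.3, 232.5 and 272.3 at 0 h, 216.4, 236.2 and 244.3 at 8 h, 462.7, 406.0 and 507.9 at 24 h, 749.7, 728.4 and 793.9 at 48 h, and 1070.9, 979.0 and 1082.9 at 72 h. From 24 h on the arrays of each time were above all those of the times before. CYFIP2 rose by 0.83 ± 0.09 (SE) at 24 h (adjusted p = 4.8e-06), 1.54 at 48 h (5.5e-10) and 1.99 at 72 h (4.8e-12), a fold of 3.98. The other probe set, 220999_s_at, averaged 58.7 at 0 h and 339.5 at 72 h and gave 0.95, 1.75 and 2.26 at these times.

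TP53I11, named for its induction by p53, went the other way. The probe set standing for it read 195.1, 180.3 and 151.0 at 0 h, 249.8, 170.0 and 190.6 at 8 h, 215.4, 147.5 and 239.0 at 24 h, 116.3, 85.8 and 83.1 at 48 h, and 96.9, 97.3 and 89.7 at 72 h. Up to 24 h the arrays overlapped, and all those of 48 h and 72 h lay below every earlier one. It was at 0.16 ± 0.16 (SE, adjusted p = 0.58) at 24 h and fell by 0.79 at both 48 h (adjusted p = 7.2e-04) and 72 h (5.2e-04), 1.72-fold at 72 h. The second probe set, 203421_at, read 77.1, 80.9 and 95.1 at 0 h and 81.0, 56.7 and 38.3 at 72 h, so its arrays overlapped. Its change was -0.21 at 48 h (adjusted p = 0.47) and -0.46 at 72 h (0.081), and it was not called. Without 72 h replicate 3 the 72 h value was -0.25 (adjusted p = 0.35). The remaining probe set, 216919_at, read 2.4 to 19.3, below the filter, and was not tested.

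**Figure D3:**
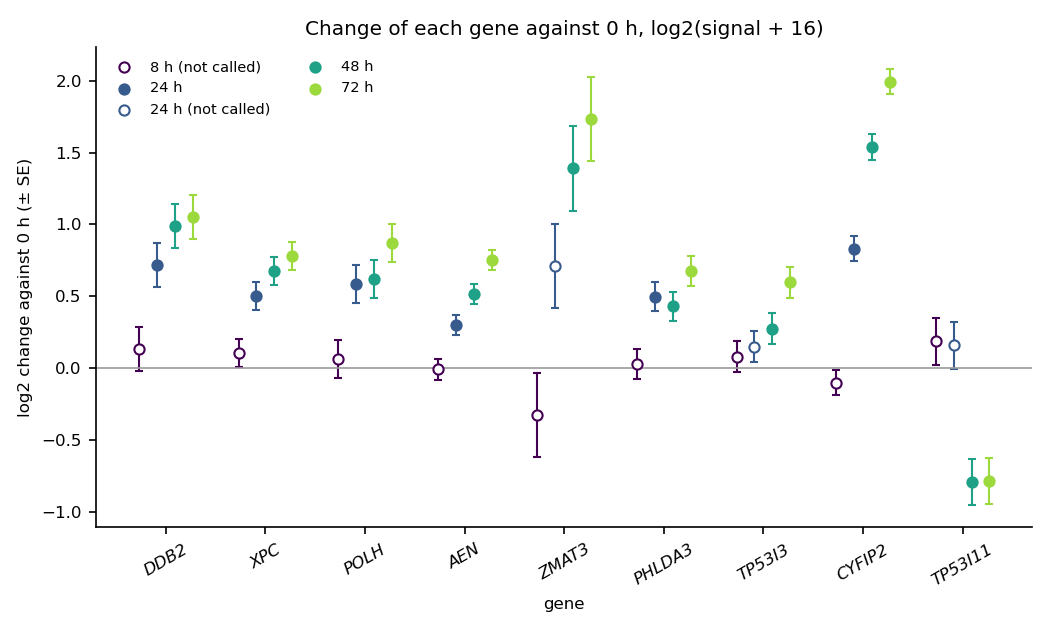
Log2 change of each gene against 0 h at 8, 24, 48 and 72 h, in log2(signal + 16), with limma's SE (3 arrays per time). Filled points passed the adjusted threshold of 0.05 and open points did not: all 9 at 8 h and 3 at 24 h (ZMAT3, TP53I3 and TP53I11) are open. TP53I11 alone is below 0 at 48 h and 72 h.

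On the probe sets standing for the genes, the share of the 72 h change reached by 24 h varied. At 24 h PHLDA3 had reached 73.6% of its 72 h change, DDB2 68.1%, POLH 67.0% and XPC 64.4%. CYFIP2 had reached 41.7%, ZMAT3, whose 24 h change was not called, 41.1%, and AEN 39.9% (these shares were not tested against each other). Such a share depends on the probe set. PHLDA3 was at 0.91 at 24 h and 1.59 at 72 h on its dimmer probe set. ZMAT3 was at 0.74 and 2.34 on 219628_at, and at 1.09 and 2.37 on 225725_at. For TP53I3 no share is given, since its 24 h change of 0.15 was not called and was 0.08 without 24 h replicate 3 and 0.09 without 0 h replicate 2. CYFIP2 was the one gene called in every step under all 28 alternative settings, at 0.93 ± 0.09 (SE) from 8 h to 24 h, 0.71 from 24 h to 48 h and 0.45 from 48 h to 72 h (adjusted p = 6.3e-06, 1.3e-05 and 0.0027).

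From 8 h to 24 h, 7 of 9 members were called higher, all but TP53I3 and TP53I11 (2.54% of all genes were higher). The count is not stable: it was 4 with centred arrays, 4 with no filter and 1 with only the groups compared, and it fell to 2 without 24 h replicate 1 and to 4 without 24 h replicate 3. ZMAT3 was at 1.04 (adjusted p = 0.045). Without 8 h replicate 3, the low array, ZMAT3 was at 0.46 and still called (0.042). Its call was lost without any single array of 0, 24 or 48 h and without 72 h replicate 1 or 2. DDB2 was at 0.58 (adjusted p = 0.031), and at 0.40 (0.14) without 8 h replicate 3, with the call also lost without 24 h replicate 1 or 2. XPC (0.40) lost its call without 8 h replicate 2 or 24 h replicates 1 or 3, and POLH (0.52) without 8 h replicates 2 or 3 or 24 h replicate 3. AEN (0.31) lost it without 8 h or 24 h replicate 1, and PHLDA3 (0.47) without 24 h replicate 1.

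From 24 h to 48 h CYFIP2 and AEN were called higher (12.4% of all genes) and TP53I11 lower (10.5%). TP53I11 fell by 0.95 (adjusted p = 3.5e-04), and was at -0.44 (0.18) on its second-brightest probe set. AEN was at 0.22 (adjusted p = 0.035), and its call was lost with centred arrays (0.18, adjusted p = 0.19), without any single array of 24 h and without 48 h replicate 2 or 3. ZMAT3 was at 0.68 (adjusted p = 0.11) on the probe set standing for it. It was called on 3 of its 5 probe sets, with the mean of all 5 (0.81, adjusted p = 7.8e-05) and without 8 h replicate 3 (0.68, adjusted p = 1.8e-04). From 48 h to 72 h CYFIP2 and AEN (0.24, adjusted p = 0.040) were called higher, as were 4.54% of all genes. That count of 2 was 1 without any single one of 0 h replicates 1 and 2, 24 h replicate 1, 48 h replicates 1 and 2 and the 72 h replicates, and 4 without 8 h replicate 3. With the replicate number as a block it was 3. In the last step DDB2 was at 0.07 ± 0.15 (SE, adjusted p = 0.84), or 0.19 (0.54) without 72 h replicate 3, and XPC at 0.10 (0.55).

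Across the 15 arrays the log2 values of the 8 risers correlated with each other at 0.555 to 0.987 (Pearson's r, 28 pairs, median 0.873). Those of TP53I11 correlated with theirs at -0.802 to -0.498. The points share the 5 times, so a common course in time is part of every r. Risers were also set apart from TP53I11 by their change on these same arrays, so the sign of r follows largely from that grouping. The gene most like CYFIP2 of all tested was RPS27L, another p53 target (r = 0.988), and the one most like AEN was CYFIP2 (0.987). For ZMAT3 it was HMBOX1 (0.984), for XPC CRACD (0.979), for DDB2 AMMECR1 (0.971), for PHLDA3 VAMP2 (0.969), for TP53I3 C15orf62 (0.968) and for POLH LDOC1 (0.965). TP53I11 was most like TONSL (0.955), a replication-linked repair gene that was at -0.85 at 72 h.

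Other p53 targets, in a list that leaves the 10 genes out, moved mostly upward too. Of 29 measured (of 34), limma called 0 at 8 h, and 0 were lower at 24 h, where 16 were higher (7.74% of all genes were). By 48 h 24 were higher and 1 lower (26.3% and 17.7% of all genes), and by 72 h 26 higher and 1 lower (32.8% and 22.7%). Their median change was 0.41, 0.82 and 0.89 at 24, 48 and 72 h, beside 0.50, 0.62 and 0.78 for the 9 genes. These medians and the counts at 48 h and 72 h include GDF15 (7.9 at 0 h) and ACER2 (15.5). Both averaged under the filter signal of 16.6 at 0 h and entered only through the later times. Their calls as higher at 48 h and 72 h are thus not used as support. The greatest 72 h changes were those of RRM2B, a ribonucleotide reductase subunit for DNA repair (2.37 ± 0.10, SE), SESN1, a sestrin (2.11 ± 0.12), and PLK2, a polo-like kinase (1.99 ± 0.16). PMAIP1, which encodes the death-promoting protein NOXA, was the one that fell (-0.34 ± 0.09, adjusted p = 0.0032), and so shares its direction with TP53I11. The next list holds p53 family members, upstream kinases and the p53 partners MDM4, TP53BP1 and USP7. Of its 10 measured genes, 4 were higher and 6 lower by 72 h (32.8% and 22.7% of all genes). The checkpoint kinases CHEK1 (-1.55 ± 0.10) and CHEK2 (-1.14 ± 0.11) fell, and ATM, the kinase that senses double-strand breaks, rose (0.85 ± 0.12).

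The partners of the repair genes moved in both directions. For this list and those that follow, the shares of all genes at 72 h are 32.8% higher and 22.7% lower. At 72 h 5 of 22 measured nucleotide excision repair genes were higher and 8 lower, with a median of 0.03. The 3 subunits of RPA, the single-strand binding protein that replication also uses, fell most: RPA2 by 2.10 ± 0.09 (SE), RPA3 by 1.68 ± 0.09 and RPA1 by 0.85 ± 0.09. DDB1, the partner of DDB2, was at -0.01 ± 0.07 (adjusted p = 0.95), and XPA, which verifies lesions, rose by 0.77 ± 0.10. Both were named after their values were seen.

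Translesion synthesis genes, all 15 of them measured, included 4 that were higher and 6 that were lower at 72 h (median -0.18). RAD18, the ligase that marks PCNA for the bypass polymerases, fell by 1.59 ± 0.13 (SE), PCNA, the sliding clamp, by 1.47 ± 0.07 and USP1, which removes that mark, by 1.34 ± 0.08. POLK (0.44 ± 0.11) and REV3L (0.36 ± 0.12), further bypass polymerases named after their values were seen, rose as POLH did. Others of the list did not: POLI was at 0.09 (adjusted p = 0.53) and REV1 at -0.18 (0.098), and PRIMPOL, which primes anew past lesions, fell by 0.67 (4.3e-05). Among 12 measured genes of ferredoxins and iron-sulfur assembly, the surroundings of FDXR, 3 were higher and 3 lower at 72 h. FDX1, a ferredoxin, fell by 0.72 ± 0.08 and NFU1, a late-acting assembly factor, by 0.46 ± 0.08, while ISCU, the assembly scaffold, rose by 0.63 ± 0.10 and NFS1, the sulfur donor, by 0.53 ± 0.13.

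Of 8 measured genes of the WAVE complex and its partners, 3 were higher at 72 h and 1 was lower. CYFIP1, the paralog of CYFIP2, rose by 0.34 ± 0.08 (SE) and WASF2 by 0.37 ± 0.12, both less than the 1.99 of CYFIP2. NCKAP1, the subunit that CYFIP proteins bind directly, fell by 1.18 ± 0.10 at 72 h and was already lower at 24 h (-1.05, adjusted p = 9.9e-07). Among relatives of the members, 3 of 10 measured were higher by 72 h and 3 lower. PHLDA1 fell by 1.01 ± 0.12, opposite to PHLDA3, and CRYZ, a quinone reductase of the TP53I3 family, fell by 0.55 ± 0.09. ZMAT4 (1.24 ± 0.13) and VAT1, of the family of TP53I3 (1.14 ± 0.15), rose.

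**Figure D4:**
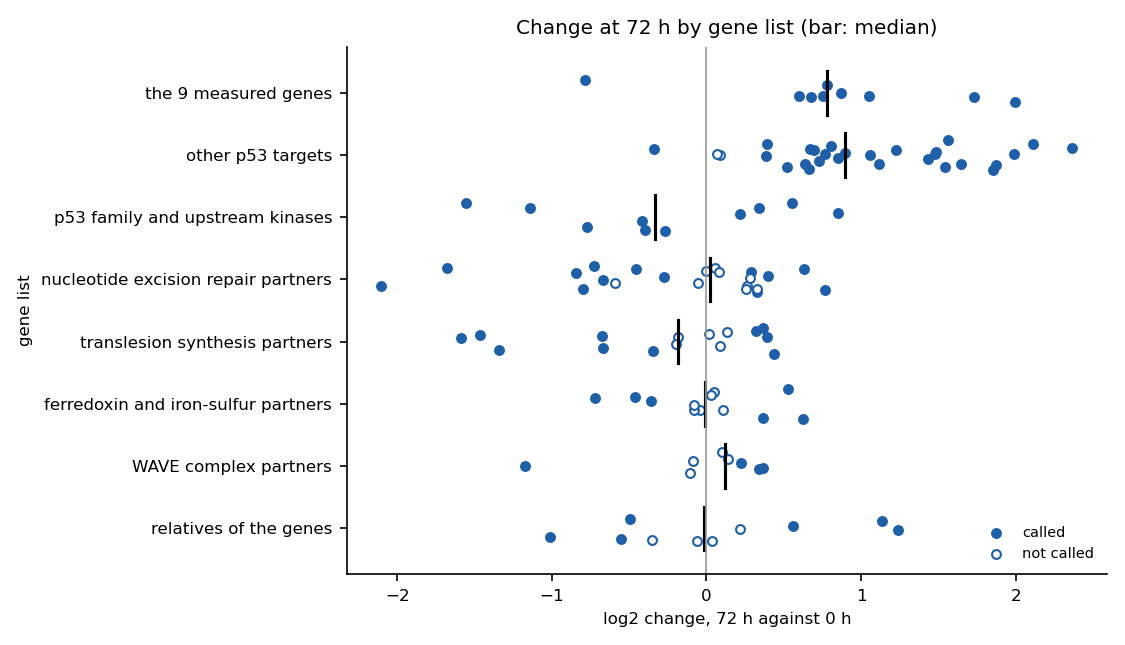
Log2 change at 72 h against 0 h of every measured gene, by list, with a black bar at each list's median. Filled points were called and open points were not. The list of the p53 family and upstream kinases also holds MDM4, TP53BP1 and USP7. The 9 genes (median 0.78) and the other p53 targets (median 0.89) lie mostly to the right of 0, and the repair partners spread to both sides (medians 0.03 and -0.18).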

How the data were processed

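Total RNA of the IMR32 clone was hybridised to 15 Affymetrix arrays. Per the submitters' processing notes the authors used MAS5 and GCOS (versions not given in the sources used here). The deposited value of each probe set is a linear signal intensity. The trimmed mean, with 2% removed at each end, was 100.01 on every array, so values were used as deposited. Precision is limited by having 3 arrays per time.

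Of 54675 probe sets, 41091 name 1 gene in GEO's platform annotation, with symbols checked by gene identifier against RefSeq. Values were taken as log2(signal + 16). Probe sets entered if their mean was at or above the median of all that are not controls (a signal of 16.6), which 27307 did. The brightest of each gene stood for it, leaving 11774 genes. Limma 3.58.1 in R 4.3.3 (lmFit, eBayes with trend) fitted the 5 times together, with Benjamini-Hochberg adjustment over all genes. A second fit tested all probe sets past the filter. The fit of the comparisons with 0 h was checked on simulated data with noise drawn independently for each array. The steps between consecutive times were not checked in this way. Python 3.11.15 prepared tables, motif search and figures.

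The genes and lists were chosen with earlier results of these data known. Genes named outside the 9 are, of each list, up to 3 called with the greatest 72 h change and up to 2 called in the direction opposite to most members, and for each member the most correlated gene. DDB1, XPA, POLK, REV3L, POLI, REV1 and PRIMPOL fall outside this rule.

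Replicate numbers in the labels are not said to pair arrays. Deviations from the group mean correlated at a median of 0.12 between same-numbered arrays (30 pairs) and -0.08 between arrays of different number (60 pairs). For same-numbered arrays they were above 0.1 in all 3 pairs for 48 h with 0 h (0.12 to 0.21), 72 h with 24 h (0.12 to 0.19) and 72 h with 48 h (0.12 to 0.35). The other comparisons did not meet this, among them 24 h with 0 h (0.09 to 0.14) and 8 h with 0 h (-0.08 to 0.10). The main fit did not use the numbers. Alternatives changed the pseudocount, scaling, filter, probe sets per gene, variance prior, array weights, arrays fitted and the replicate block, and left out each array in turn. Fits without the third arrays of 8 h and 72 h, and with the second-brightest probe set, were added after seeing the data.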

Additional observations from a re-analysis of the deposited data

How the results depend on the processing

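Across 28 alternative settings, 20 of the 24 called changes against 0 h kept their direction and their call. The exceptions are the 24 h change of AEN (lost with centred arrays), the 48 h change of TP53I3, and those of TP53I11 at 48 h and 72 h, which the second-brightest probe set did not pass (-0.21 and -0.46). Counts of members called in the steps moved most. From 8 h to 24 h the 7 became 4 with centred arrays, 4 with no filter and 1 with only the groups compared, and 2 to 7 with single arrays left out. From 48 h to 72 h the 2 became 1 with centred arrays or only the groups compared, 4 with the mean of the probe sets or array weights, and 1 to 4 with single arrays left out. With the replicate number as a block the counts were 0, 6, 9 and 9 against 0 h at 8, 24, 48 and 72 h, and 7, 3 and 3 in the steps, so that no count of members changed by over 1.5 times. The ZMAT3 change at 24 h, not called, passed with the mean of the probe sets (0.79), array weights (0.76), only the groups compared (0.71), the second-brightest probe set (0.74) and without 8 h replicate 3, with or without that of 72 h (0.71). Sign changes occurred only at 8 h, among values that no fit called. ZMAT3 went from -0.33 to 0.0041 with the mean of the probe sets, 0.020 with array weights, 0.25 without 8 h replicate 3 (with or without that of 72 h) and 0.13 on the second-brightest probe set. CYFIP2 went from -0.10 to 0.088 on that probe set. Leaving out single arrays gave -0.643 to 0.248 for ZMAT3, -0.0392 to 0.014 for AEN, -0.0199 to 0.1511 for TP53I3, -0.0484 to 0.082 for PHLDA3 and -0.0483 to 0.1282 for POLH, and TP53I3 was at -0.0199 without the third arrays of 8 h and 72 h. Counts over all genes moved by over 1.5 times at 8 h (53, with 102 under array weights and 20 to 70 without single arrays), at 24 h (1584, with 1006 to 1843 and, on second-brightest probe sets, 1030), from 8 h to 24 h (681, with 340 with only the groups compared, 441 on second-brightest probe sets and 370 to 842) and from 48 h to 72 h (1258, with 656 to 1450). The cause was not tested.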
